A study of Mus musculus with 7 samples.

Results

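Kidney was compared with liver, cortex, skeletal muscle and 3 adipose depots, namely visceral (VAT), subcutaneous (SCAT) and interscapular brown fat (BAT), and the protein-coding genes that stood highest or lowest in kidney were described by nephron segment and function. The kidney library is 1 of 7 RNA-Seq libraries, 1 for each tissue, and all came from wild-type C57BL/6 mice (labelled wt, and C57BL/6N in the text of the study) of 36 weeks on a diet that the labels call NCD, without spelling it out. The labels give neither the sex of the mice nor the number of animals behind a library, and they do not say whether the cortex is that of the brain. That sample carried the neuronal genes Snap25 at 215 FPKM and Nefl at 254 FPKM, against 0.0119 and 0.231 in kidney. With 1 library per tissue, no difference has a replicate check, and no p-value was computed. The deposited values are FPKM, fragments scaled to transcript length and to the mapped fragments of the library, without the fragment counts, so the depth behind a value is unknown.

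Of 21658 protein-coding genes in the table, 15114 reached 1 FPKM in at least 1 tissue. A gene was called enriched in kidney when it had at least 1 FPKM there and its log2(FPKM + 0.1) exceeded that of the highest other tissue by at least 2, which is 4-fold. That difference is called the log2 ratio below, and because of the added 0.1 it understates the difference for genes with low values. By this rule 373 genes were enriched in kidney, which is 2.47% of those that reached 1 FPKM.

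The kidney filters plasma in glomeruli, whose podocytes form the filtration slits. The proximal tubule then takes back glucose, amino acids, phosphate, bicarbonate and filtered protein, and secretes organic ions and drugs. The thick ascending limb reabsorbs salt without water, the distal convoluted tubule adjusts sodium, calcium and magnesium, and in the collecting duct principal cells handle water and sodium while intercalated cells handle acid and base. The kidney also releases renin and activates and degrades vitamin D. In whole-tissue RNA, more cells of a type and more RNA per cell cannot be told apart.

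The 4 marker genes of kidney were high in the library labelled kidney and low elsewhere. Kap, the androgen-regulated kidney protein of the proximal tubule (chromosome 6, 133848510 to 133854073, build GRCm38), was measured at 23760.3 FPKM in kidney. The other tissues had 9.54 in liver, 5.04 in VAT, 0.509 in cortex, 0.885 in BAT and 3.19 in skeletal muscle, and the gene was listed at 0 in SCAT. The log2 ratio of Kap was 11.27, and the gene alone made up 9.63% of the summed FPKM of protein-coding loci in kidney. Slc34a1, which encodes the main sodium-phosphate cotransporter of the proximal tubule brush border (chromosome 13), had 505 FPKM in kidney, 0.207 in liver, 0.125 in skeletal muscle, 0.0448 in VAT, 0.0148 in cortex and 0 in SCAT and BAT. Its log2 ratio was 10.69. The locus that carries this name spans 55209782 to 55618339 and holds 17 other protein-coding genes, so its bounds are wider than the annotated gene.

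Umod encodes uromodulin, the most abundant protein of normal urine, and Slc12a1 the sodium-potassium-chloride cotransporter blocked by loop diuretics. Both belong to the thick ascending limb. Umod had 929.5 FPKM in kidney, 0.322 in liver, 0.184 in VAT and 0 in cortex, SCAT, BAT and skeletal muscle, with a log2 ratio of 11.11. That value comes from a locus whose strand is opposite to that of the gene (chromosome 7, 119462711 to 119479282). The locus of the same span on the annotated strand had 368.0 FPKM in kidney and 0.206 in liver. Slc12a1 (chromosome 2, 125150475 to 125230002) had 139 FPKM in kidney, 0.0471 in liver, 0.011 in cortex, 0.00961 in VAT and 0 in SCAT, BAT and skeletal muscle, with a log2 ratio of 9.88. In all 4 markers kidney lay far above each other tissue, by a log2 ratio of 9.88 or more.

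**Figure D1:**
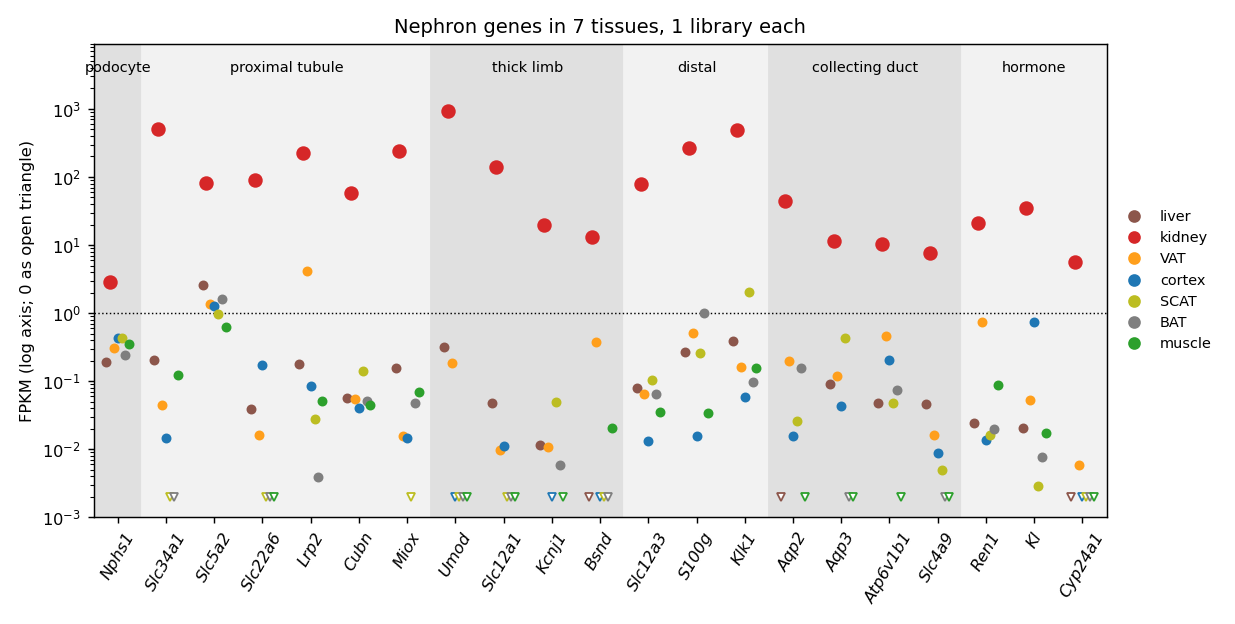
FPKM (log axis) of 21 nephron genes in each of the 7 tissues, grouped by nephron segment or function, with 1 point per library, the larger red points for kidney, open triangles at the bottom for values of 0 and a dotted line at 1 FPKM. Kidney is the highest point for every gene shown, from Nphs1 at 2.83 to Umod at 929.5 FPKM.

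The 373 enriched genes lay at 359 distinct loci. Their median kidney level was 20.95 FPKM (range 1.04 to 23760.3), and 61 genes had at least 100 FPKM while 72 had under 5. Their median log2 ratio was 3.57, with 152 genes at 4 or more, 51 at 6 or more, 26 at 8 or more and 7 at 10 or more. These values describe the genes that the rule selects. Of the 373, 112 were read from a locus opposite to the annotated strand (30.03%, beside 20.4% of all genes that reached 1 FPKM), and on annotated strands alone 337 genes met the rule. Strand was inferred, since the table has no strand column. The enriched genes together held 23.5% of the summed protein-coding FPKM of kidney, or 15.3% with Kap left out of both sums. In the other tissues the same genes held between 0.163% (skeletal muscle) and 0.753% (VAT). The highest of the other tissues was VAT for 122 of the enriched genes, liver for 95, cortex for 61, BAT and skeletal muscle for 35 each and SCAT for 25. By the same rule cortex had 1233 enriched genes, skeletal muscle 511, liver 509, SCAT 291, VAT 184 and BAT 113. Kidney was the highest of the 7 tissues for 1594 genes (10.5% of those that reached 1 FPKM), and the median log2 ratio over all genes that reached 1 FPKM was -1.29.

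**Figure D2:**
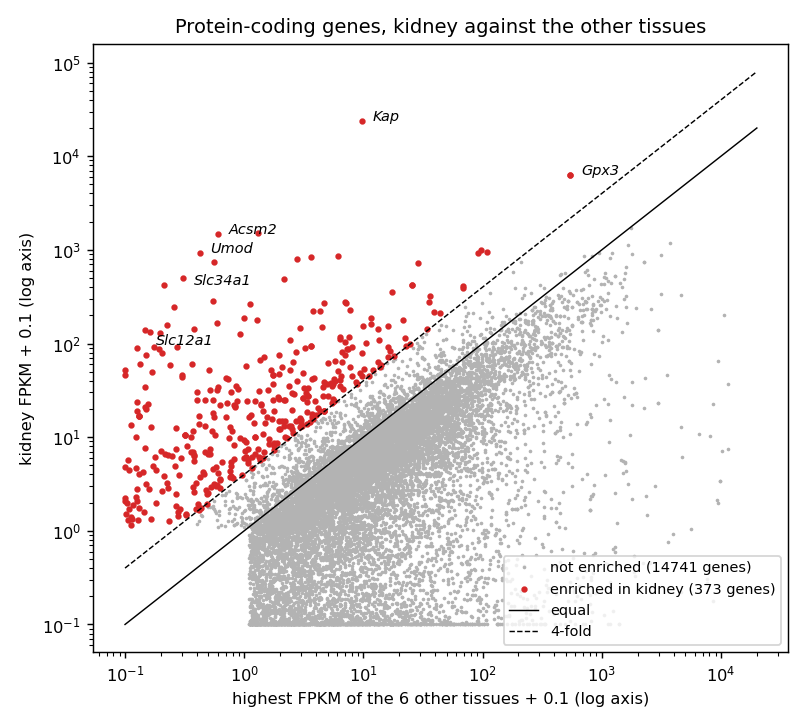
Kidney FPKM plus 0.1 against the highest FPKM of the 6 other tissues plus 0.1 (both log axes) for the 15114 protein-coding genes that reached 1 FPKM in any tissue. The 373 enriched genes (red) lie above the dashed 4-fold line, with Kap and Gpx3 at the top.

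Of 298 kidney genes in lists by segment and function that were found in the table, 115 were enriched, and 258 enriched genes lay outside these lists. The share over all genes that reached 1 FPKM, 2.47%, stands beside this count and beside each list count that follows, and the lists were made of genes already known from kidney. The shares differed widely between segments. The thick ascending limb list had the highest median log2 ratio (4.10), followed by brush border enzymes (3.46), proximal tubule solute transporters (3.20) and protein endocytosis (2.85). The median was close to 0 for the glomerular list (-0.26) and for proximal tubule metabolism (-0.27).

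**Figure D3:**
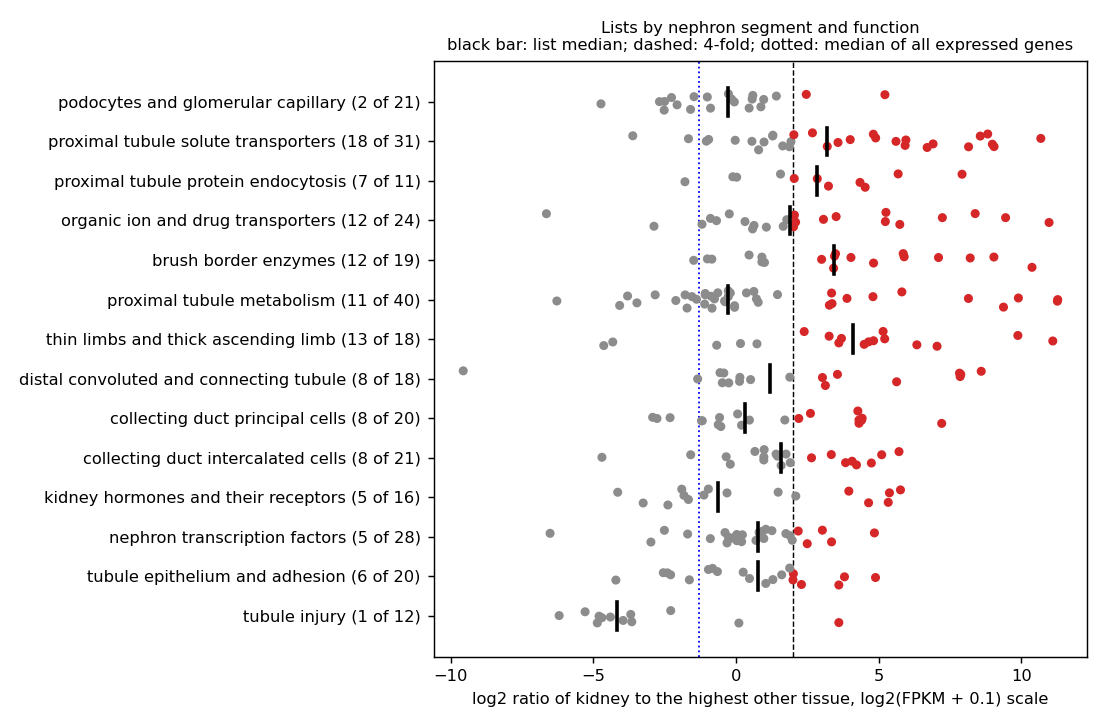
Log2 ratio of kidney to the highest other tissue for each gene of the lists by nephron segment and function, with enriched genes in red, other genes in grey, list medians as black bars, the 4-fold threshold dashed and the median of all expressed genes (-1.29) dotted. The number enriched of the number in the table stands beside each list name, and the tubule injury list is the one whose median (-4.18) lies below that of all expressed genes.

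Among 21 genes of podocytes and the glomerular capillary, 2 were enriched. Nphs1, which encodes nephrin, the main protein of the slit, had 2.83 FPKM in kidney, 0.429 in SCAT, 0.425 in cortex, 0.357 in skeletal muscle, 0.307 in VAT, 0.238 in BAT and 0.192 in liver, with a log2 ratio of 2.47. Nphs1 fell below the threshold with the libraries rescaled by their median ratio or upper quartile, which left 1 of the 21 enriched. Other podocyte genes were shared with tissues outside the kidney. Wt1, the podocyte transcription factor, had 1.63 FPKM in kidney and 1.82 in VAT. Synpo, an actin-associated podocyte protein, had 0.544 FPKM in kidney and 3.58 in skeletal muscle on an opposite-strand locus. Magi2, a scaffold protein of the slit and of synapses, had 2.33 FPKM in kidney and 15.4 in cortex. Plat and Emcn, which are expressed in endothelium, were highest in kidney at 17.4 and 31.9 FPKM but with log2 ratios of 0.88 and 0.59. Podxl was not analysed here.

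Of 31 solute transporters of the proximal tubule, all reached 1 FPKM in kidney and 18 were enriched. The glucose transporter of the early proximal tubule, Slc5a2 (SGLT2), had 80.3 FPKM in kidney, 2.6 in liver, 1.62 in BAT, 1.35 in VAT, 1.29 in cortex, 0.966 in SCAT and 0.623 in skeletal muscle. Its log2 ratio was 4.90. The related Slc5a1 (SGLT1) of the later segments had 24.9 FPKM in kidney and at most 0.303 elsewhere, in liver, on an opposite-strand locus, and 9.82 in kidney on its own strand. Their basolateral partner Slc2a2 (GLUT2) was not enriched, with 48.9 FPKM in kidney and 100.3 in liver.

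The largest ratios in this list, after Slc34a1, were those of Slc7a13 (9.05, an aspartate, glutamate and cystine carrier), Slc5a8 (8.99, a monocarboxylate carrier), Slc5a12 (8.82, another monocarboxylate carrier), Slc13a1 (8.56, sodium-sulfate cotransport) and Slc6a18 (8.15, neutral amino acids). Their kidney levels were 92.6, 75.9, 86.7, 143 and 167 FPKM. None of these genes reached 0.5 FPKM in another tissue. The cystine transporter subunits Slc3a1 and Slc7a9 had 187 and 31.5 FPKM in kidney, with log2 ratios of 4.01 and 5.93. Slc4a4, the basolateral sodium-bicarbonate cotransporter, had 172 FPKM in kidney, 70.5 in BAT and 38.0 in liver. Slc1a1, a glutamate transporter, had 47.7 FPKM in kidney and 12.4 in cortex. The sodium-proton exchanger Slc9a3 had 14.5 FPKM in kidney and 7.29 in cortex, and the water channel Aqp1 had 42.1 FPKM in kidney and 28.5 in skeletal muscle. The glutamine transporter Slc38a3 had 27.4 FPKM in kidney, below skeletal muscle (29.3) and liver (337).

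Of 24 organic ion and drug transporters, 12 were enriched and 18 were highest in kidney. Slc22a12, which encodes the urate transporter URAT1, had 424 FPKM in kidney and between 0.0477 (SCAT) and 0.111 (VAT) elsewhere, with a log2 ratio of 10.97. Its locus also spans Nrxn2. Slc22a6 (OAT1), the basolateral organic anion exchanger, had 91.6 FPKM in kidney, 0.174 in cortex, 0.0388 in liver, 0.0161 in VAT and 0 in the remaining tissues, with a log2 ratio of 8.39. Slco1a6, an organic anion carrier, had 88.9 FPKM in kidney and at most 0.0271 elsewhere. Slc22a2 (OCT2), an organic cation carrier, had 75.5 FPKM in kidney, 0.0429 in liver and at most 1.87 elsewhere, in BAT. The luminal extruder Slc47a1 (MATE1) had 143 FPKM in kidney and 34.4 in liver. Among the efflux pumps, Abcc2 had 67.6 FPKM in kidney and 154 in liver, Abcc3 had 0.932 in kidney and 103 in liver (3.61 in kidney on its own strand), and Abcg2, a urate and drug pump, had 244 in kidney and 70.8 in liver.

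Over the whole Slc and Slco superfamily, 52 of 337 members that reached 1 FPKM were enriched in kidney, which is 15.4% beside 2.47% for all such genes. The families within it were uneven. Of the Slc22 organic ion carriers 11 of 23 were enriched, of the Slc5 sodium-glucose family 6 of 10, and of the Slc6 and Slc7 amino acid carriers 2 of 16 and 4 of 14. Slc22a19, an organic anion carrier, had 52.2 FPKM in kidney and was listed at 0 in all 6 other tissues, so no ratio is given. Its locus is opposite to the annotated strand, and on its own strand it had 26.6 FPKM in kidney.

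Protein uptake from the filtrate depends on the receptors megalin and cubilin. Lrp2 (megalin) had 222 FPKM in kidney, 4.21 in VAT, 0.178 in liver, 0.0841 in cortex, 0.0507 in skeletal muscle, 0.0281 in SCAT and 0.00389 in BAT, with a log2 ratio of 5.69. Cubn (cubilin) had 58.2 FPKM in kidney and at most 0.14 elsewhere, with a log2 ratio of 7.93. Its membrane anchor Amn (amnionless) had 24.2 FPKM in kidney and 0.952 in cortex. With the adaptors Dab2 and Pdzk1, Pdzk1ip1 and Rab11fip3, 7 of 11 genes of this list were enriched. Among those that were not, Fcgrt, the neonatal Fc receptor, had 83.5 FPKM in kidney, 89.98 in BAT and 83.3 in liver. Ocrl, the phosphatase mutated in Lowe syndrome, had 2.09 FPKM in kidney and 7.46 in cortex.

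Of 19 brush border proteins and enzymes, 12 were enriched and 16 were highest in kidney. Tmem27 (collectrin), which brings amino acid transporters to the brush border, had 741 FPKM in kidney, 0.457 in liver, 0.3 in VAT, 0.0782 in cortex, 0.0517 in SCAT and 0 in BAT and skeletal muscle, with a log2 ratio of 10.38. The meprin metalloprotease subunits Mep1a and Mep1b had 286 and 49.5 FPKM in kidney, with log2 ratios of 9.04 and 8.21. Ggt1, which breaks down glutathione, had 224 FPKM in kidney and 3.66 in VAT. The peptidases Anpep, Dpp4 and Mme are also bound to the brush border but were shared with other tissues. Anpep had 14.3 FPKM in kidney and 25.7 in liver, Dpp4 had 12.9 and 36.0, and Mme had 27.9 in kidney against 55.8 in BAT. The peptidase Ace, which converts angiotensin, had 28.0 FPKM in kidney, 14.8 in VAT and 11.9 in skeletal muscle. Acy3 shares its locus and value with Aldh3b2 and is uncertain. Dpep1 was not analysed here.

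Many metabolic genes of the proximal tubule had high values in liver too. Of 40 genes, 11 were enriched in kidney, 22 were highest in liver, and liver was the highest of the other tissues for 35. With liver left out of the comparison, 31 of the 40 met the rule. Acsm2, a medium-chain acyl-CoA synthetase, had 1489.9 FPKM in kidney, 0.5 in liver, 0.476 in skeletal muscle, 0.418 in VAT, 0.221 in BAT, 0.0232 in cortex and 0 in SCAT. Its log2 ratio was 11.28, on a locus opposite to the annotated strand, and the annotated strand had 1015 FPKM. Miox, which opens the ring of inositol, had 244 FPKM in kidney and at most 0.156 elsewhere, with a log2 ratio of 9.90. Hao2, a hydroxyacid oxidase of peroxisomes, had 130.3 FPKM in kidney and at most 0.096 elsewhere, with a log2 ratio of 9.38. Gatm, which makes the creatine precursor guanidinoacetate, had 102 FPKM in kidney, 10.4 in cortex and 2.98 in liver. Gamt, which converts that precursor to creatine, had 6.19 in kidney and 44.6 in liver.

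Among the genes of gluconeogenesis named here, Fbp1 and G6pc were high in both kidney and liver, whereas Pck1 was highest in BAT. The pathway as a whole was not tested. Fbp1 (fructose bisphosphatase) had 392 FPKM in kidney and 471 in liver, with 5.59 in VAT and at most 0.321 in the remaining tissues. G6pc, the catalytic subunit that releases free glucose, had 36.7 FPKM in kidney and 57.0 in liver. Pck1, the first committed enzyme of the pathway and also an enzyme of glycerol synthesis in fat, had 930.0 FPKM in kidney, 1226 in BAT, 568 in liver, 236 in VAT and 202 in SCAT. Enzymes of tyrosine breakdown had higher values in liver. Hpd had 15.1 FPKM in kidney and 1173 in liver, Hgd had 106 and 309, and Fah had 103 and 220.0.

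**Figure D4:**
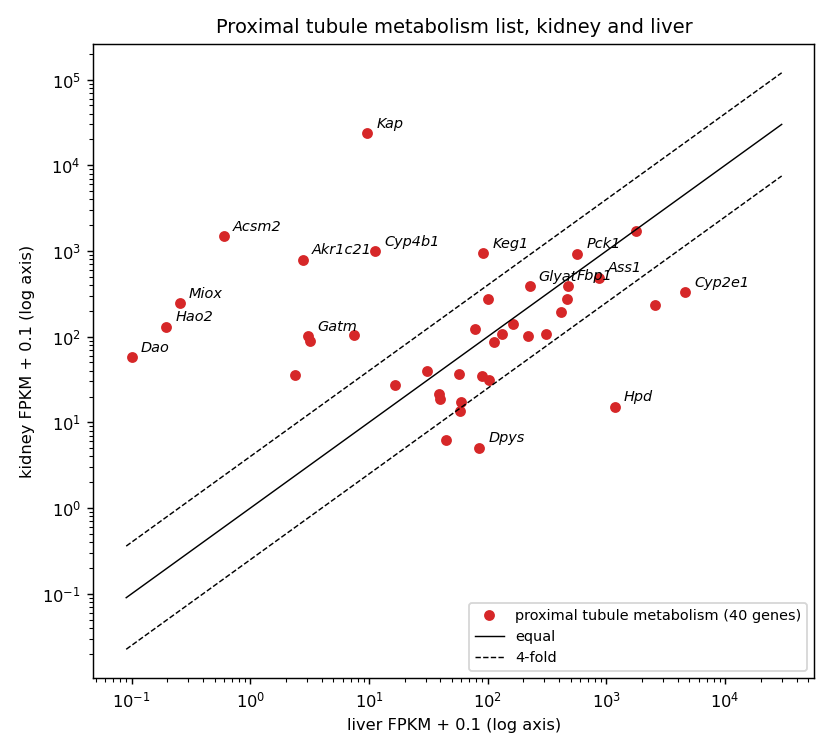
Kidney against liver FPKM (each plus 0.1, log axes) for the 40 genes of the proximal tubule metabolism list, with the line of equality and dashed lines at 4-fold either way. Kap, Acsm2, Miox and Hao2 lie far above the lines, Fbp1 and Pck1 near equality, and Hpd, with 15.1 FPKM in kidney and 1173 in liver, far below.

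In the list of the thin and thick limbs, 13 of 18 genes were enriched and 15 were highest in kidney. Channels that work with the Slc12a1 cotransporter were among them. Kcnj1 (ROMK), which returns potassium to the lumen, had 19.7 FPKM in kidney, 0.0494 in SCAT, 0.0116 in liver, 0.0109 in VAT, 0.00587 in BAT and 0 in cortex and skeletal muscle, with a log2 ratio of 7.05. Bsnd (barttin), needed for chloride exit on the basolateral side, had 13.2 FPKM in kidney and at most 0.37 elsewhere, in VAT. Kcnj1 and Bsnd were read from loci opposite to the annotated strand, and the annotated strand had 3.48 and 1.5 FPKM.

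Claudins set the ion selectivity of the tight junctions. Cldn10 had 63.9 FPKM in kidney and 6.55 in cortex. Cldn16, the magnesium and calcium pore of the thick limb, had 2.16 FPKM in kidney and was listed at 0 in all other tissues (a locus opposite to the annotated strand, with 1.23 FPKM in kidney on its own strand), and its partner Cldn19 had 2.99 in kidney and at most 0.488, in skeletal muscle. Egf, made as a membrane precursor in the thick limb and distal tubule, had 80.6 FPKM in kidney and 6.52 in skeletal muscle. Casr, the calcium-sensing receptor, was not enriched, with 11.3 FPKM in kidney and 10.1 in skeletal muscle, both on a locus opposite to the annotated gene. Cldn14 had 0.0062 FPKM in kidney and 2.01 in liver.

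Of 18 genes of the distal convoluted and connecting tubule, 8 were enriched. Slc12a3, the sodium-chloride cotransporter blocked by thiazides, had 79.2 FPKM in kidney, 0.105 in SCAT, 0.0793 in liver, 0.0652 in BAT, 0.0649 in VAT, 0.0355 in skeletal muscle and 0.0131 in cortex, with a log2 ratio of 8.60. Klk1, the tissue kallikrein of the connecting tubule, had 490.3 FPKM in kidney and 2.04 in SCAT, with a log2 ratio of 7.84. S100g, the vitamin D-dependent calcium-binding protein calbindin-D9k, had 262 FPKM in kidney and 1.01 in BAT, with a log2 ratio of 7.88. Its larger relative Calb1 was shared with cortex, at 18.4 FPKM in kidney and 27.1 in cortex, with at most 0.0396 in the remaining tissues. Pvalb, a marker of the early distal convoluted tubule, had 6.11 FPKM in kidney but 4675 in skeletal muscle.

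The sodium pump drives reabsorption along the whole tubule. Its regulatory subunit Fxyd2 had 846 FPKM in kidney and at most 3.55 elsewhere, in VAT, with a log2 ratio of 7.86. Atp1b1, the beta subunit, had 306 FPKM in kidney and 214 in cortex and was not enriched. Wnk1 and Stk39 encode kinases that control distal salt transport. Wnk1 had 91.7 FPKM in kidney and 123 in skeletal muscle, and Stk39 had 22.4 in kidney and 56.9 in cortex.

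Of 20 genes of principal cells, 8 were enriched. Aqp2, the vasopressin-regulated water channel, had 44.1 FPKM in kidney, 0.198 in VAT, 0.155 in BAT, 0.0259 in SCAT, 0.0156 in cortex and 0 in liver and skeletal muscle, with a log2 ratio of 7.21. The value comes from a locus opposite to the annotated gene, whose own strand had 19.4 FPKM. The basolateral exit channels differed. Aqp3 had 11.4 FPKM in kidney and at most 0.437 elsewhere, whereas Aqp4 had 20.4 in kidney, 31.4 in cortex and 15.1 in skeletal muscle on an opposite-strand locus, and 1.58 in kidney on its own strand. The subunits of the epithelial sodium channel ENaC also differed. Scnn1b had 5.95 FPKM in kidney with a log2 ratio of 2.61, Scnn1g had 4.16 with 1.71, and Scnn1a had 5.90 in kidney and 8.83 in liver. The mineralocorticoid receptor Nr3c2 had 1.49 FPKM in kidney and 7.75 in cortex, and Hsd11b2, which protects it from cortisol-like steroids, had 4.49 in kidney and 6.51 in cortex.

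Of 21 genes of intercalated cells, 8 were enriched and 17 were highest in kidney. Atp6v1b1, a proton pump subunit of these cells, had 10.5 FPKM in kidney, 0.464 in VAT, 0.207 in cortex and at most 0.0738 elsewhere, with a log2 ratio of 4.23. Slc4a9, a bicarbonate transporter of these cells, had 7.57 FPKM in kidney and at most 0.0459 elsewhere, with a log2 ratio of 5.72. Slc26a4 (pendrin), the chloride-bicarbonate exchanger of base-secreting cells, had 12.2 FPKM in kidney and 1.86 in cortex. Slc4a1, the anion exchanger of acid-secreting cells and of erythrocytes, had 6.21 FPKM in kidney and at most 0.276 elsewhere, on an opposite-strand locus, and 5.26 in kidney on its own strand. The haemoglobin gene Hbb-bs had 562 FPKM in kidney, 1073 in VAT and 999 in BAT, and the part of blood cells in the Slc4a1 value was not tested. Atp6v0a4, a further pump subunit, had 46.3 FPKM in kidney, but its locus also carries the name D630045J12Rik.

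Renal hormone genes and receptors had 5 of 16 members enriched. Ren1, renin of the juxtaglomerular cells, had 21.1 FPKM in kidney, 0.743 in VAT, 0.0877 in skeletal muscle, 0.0245 in liver, 0.0196 in BAT, 0.0159 in SCAT and 0.0135 in cortex, with a log2 ratio of 4.65. Its substrate gene Agt had 6.04 FPKM in kidney and 58.3 in liver. Kl (klotho), the co-receptor of the phosphate-lowering hormone FGF23, had 35.1 FPKM in kidney and 0.745 in cortex, with a log2 ratio of 5.38, on an opposite-strand locus, and 11.2 in kidney on its own strand. Pth1r, the parathyroid hormone receptor, had 118 FPKM in kidney and 7.53 in BAT. Vdr, the vitamin D receptor, had 16.9 FPKM in kidney and at most 0.32 elsewhere. Cyp24a1, which inactivates vitamin D, had 5.67 FPKM in kidney, 0.00592 in VAT and 0 in the remaining tissues, while Cyp27b1, which activates it, had 0.492 in kidney and at most 0.0382 elsewhere, below the minimum of 1 FPKM. Epo could not be read, because its locus is merged with Gnb2 and had between 36.3 and 64.3 FPKM in all tissues.

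Of 28 transcription factors of the nephron, 19 were highest in kidney and 5 were enriched. Those were Hnf4g (4.86 FPKM in kidney, log2 ratio 4.85), Lhx1 (1.21, 3.35), Irx1 (4.68, 3.03), Irx2 (3.06, 2.50) and Sim1 (8.0, 2.18). Hnf4g, Irx2 and Sim1 were read from opposite-strand loci. On their annotated strand they had 2.29, 1.06 and 0.77 FPKM in kidney with log2 ratios of 4.10, 2.22 and 1.34, so that the call of Sim1 was lost. With Hoxa10, which had 6.39 FPKM and a log2 ratio of 2.45 on its own strand against 9.59 and 0.98 on the opposite one, 5 of 28 met the rule there too. Hnf4a, a regulator of proximal tubule and hepatocyte genes, had 159 FPKM in kidney and 207 in liver. Pax8, required for nephron formation, had 18.9 FPKM in kidney, 9.07 in VAT and at most 0.0862 elsewhere.

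Of 20 genes of tubule epithelium and adhesion, 6 were enriched. Cdh16, the kidney-specific cadherin, had 227 FPKM in kidney, 7.55 in VAT, 0.163 in liver, 0.0754 in BAT, 0.0307 in SCAT, 0.0257 in cortex and 0 in skeletal muscle, with a log2 ratio of 4.89. Pkhd1, mutated in recessive polycystic kidney disease, had 26.7 FPKM in kidney, 1.82 in VAT and 1.51 in liver, with a log2 ratio of 3.81. Pkd2 was enriched at 20.5 FPKM with a log2 ratio of 2.30, while Pkd1 had 2.12 FPKM in kidney and 3.38 in VAT. General epithelial genes differed in how close kidney and VAT stood. Epcam had 14.3 FPKM in kidney and 11.9 in VAT, and Cldn7 had 3.47 and 6.86. Krt7 was enriched, with 7.15 FPKM in kidney and 1.69 in VAT, while Krt19 had 1.21 and 6.83.

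VAT was the highest other tissue for 11 of 21 intercalated cell genes, 10 of 28 transcription factors and 11 of 20 epithelium genes. Among all enriched genes it was VAT for 122 of 373, and the share over all genes was not computed. Skeletal muscle was the highest other tissue for 9 of the 28 transcription factors. In the first of these lists Rhcg, an ammonia channel, had 12.9 FPKM in kidney and 4.23 in VAT, Atp6v1g3 had 7.09 and 1.82, Foxi1, the master regulator of intercalated cells, had 1.70 and 0.805, and Aqp6, a water channel, had 2.05 and 0.994, the last pair on loci opposite to the annotated strand. On their own strand Foxi1 and Aqp6 had 0.124 and 0.589 FPKM in kidney. None of these 4 genes exceeded 0.102 FPKM in any of the remaining 5 tissues. The VAT library also held genes known from the epididymis, with Crisp1 (merged with Crisp3) at 1386 FPKM, Lcn5 at 1119 and Adam7 at 134, against 0, 0 and 0.0192 in kidney. These genes were chosen after their values were seen, and their part in the shared values was not tested. With VAT left out of the comparison, enriched members rose from 8 to 12 of 21 for intercalated cells, from 5 to 9 of 28 for transcription factors and from 6 to 11 of 20 for epithelium, and over all genes from 373 to 435.

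**Figure D5:**
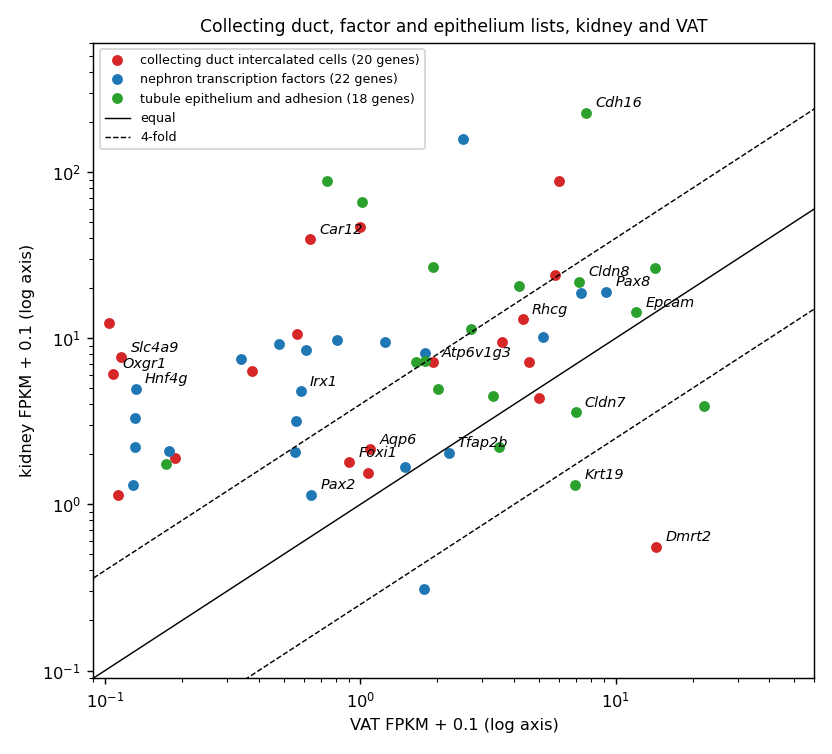
Kidney against VAT FPKM (each plus 0.1, log axes) for the genes of the intercalated cell, transcription factor and epithelium lists that reached 1 FPKM in either tissue, with the line of equality and dashed lines at 4-fold either way. Pax8, Rhcg, Atp6v1g3, Epcam and Cldn8 (read from an opposite-strand locus, with 0.0254 FPKM in kidney on its own strand) lie between equality and the upper 4-fold line, and Dmrt2, with 0.456 FPKM in kidney and 14.3 in VAT, lies below both.

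To show upstream sequence of genes that share kidney enrichment, promoters were searched for the homeodomain-type motif GTTAATNATT on both strands. RefSeq start sites of GRCm38.p6 were found for 274 of the 373 enriched genes. The motif lay in the 250 bases upstream in 4 of the 274 (1.46%) and in 69 of 16168 protein-coding genes with a start site (0.427%). Counted from the start site, the matches begin at -79 in Pkhd1 and Sult1d1, at -221 in Slc10a2 and at -62 in Atp6v0a4, and none of the 4 marker genes has a match. For comparison, TATAAA on the strand of the gene was found in 10.6% of the enriched and 8.83% of all genes, among them Kap at -31. Sult1d1, a sulfotransferase, had 389 FPKM in kidney and 67.9 in liver, and Slc10a2, the apical bile acid transporter, had 19.2 and 2.41 on an opposite-strand locus, and 8.4 in kidney on its own strand. A match describes the letters only. The window of Atp6v0a4 overlaps an annotated exon and is not shown. For the remaining genes the match is in capitals, 5′ to 3′ on the strand of the gene, which is the minus strand for each:
Pkhd1, chr1:20618097-20618166: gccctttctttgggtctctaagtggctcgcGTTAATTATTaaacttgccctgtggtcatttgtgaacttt
Slc10a2, chr8:5105469-5105537: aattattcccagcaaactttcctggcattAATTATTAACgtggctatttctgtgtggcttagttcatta
Sult1d1, chr5:87569046-87569115: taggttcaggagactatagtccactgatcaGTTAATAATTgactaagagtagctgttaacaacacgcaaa

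Of 12 genes of tubule injury, 5 reached 1 FPKM in kidney and 1 was enriched, with a list median log2 ratio of -4.18. The other members that reached 1 FPKM were Clu with 26.3, Vim with 11.4, Vcam1 with 2.74 and Fn1 with 2.62 FPKM, and each was higher in at least 1 other tissue. Havcr1 (KIM-1) had 0.794 FPKM in kidney and Lcn2 (NGAL) 0.855, against 14.7 for Lcn2 in VAT. The enriched member was Spp1 (osteopontin), which is also made by healthy tubules, at 88.0 FPKM in kidney and 7.13 in liver.

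Markers of other cell types were checked in the kidney library. None of 8 hepatocyte, 8 leukocyte, 8 adipocyte, 8 adrenal, 6 pancreatic acinar, 6 endothelial, 6 neuronal, 5 smooth muscle or 5 skeletal muscle markers in the table was enriched in kidney. The rule sets kidney against tissues in which many of these markers are highest, so the counts do not show that such cells were absent. In kidney, 4 of 8 leukocyte, 5 of 6 endothelial and 0 of 6 neuronal markers reached 1 FPKM. Their sums in kidney were 97.6, 44.9 and 0.643 FPKM. The summed adipocyte markers were 103 FPKM in kidney against 8383 in VAT, 5568 in SCAT and 17694 in BAT, of which Fabp4 gave 64.4, Cfd 20.4 and Ucp1 10.6 in kidney. The summed hepatocyte markers were 70.2 FPKM in kidney and 22609 in liver, where Alb has no value. The sum in liver therefore leaves Alb out. The adrenal steroid enzymes Cyp11b1 and Cyp21a1 were at 0 in kidney. Of 6 urothelial markers, which could come from the renal pelvis, Upk3a (2.68 FPKM) and Psca (3.04) met the rule on loci opposite to the annotated strand, with 0.749 and 0.59 on their own strand, and Krt5 had 0.236. Of 6 erythroid markers only Slc4a1, described above with the intercalated cells, was enriched. Acta1 was not analysed here.

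Among the 25 largest log2 ratios, some belonged to genes outside the segment lists. Spink1, a secreted trypsin inhibitor, had 1531 FPKM in kidney and at most 1.21 elsewhere, in SCAT, with a log2 ratio of 10.19. Guca2b (uroguanylin), a peptide that acts on salt excretion, had 158 FPKM in kidney, 0.124 in VAT, 0.0742 in liver and 0 in the remaining tissues, with a log2 ratio of 9.46. Tmem174 had 61.0 FPKM in kidney and at most 0.0348 elsewhere on an opposite-strand locus, and 11.4 in kidney on its own strand. Pfn3 had 132 FPKM, but it lies in the same merged region as Slc34a1. Ppm1j, a protein phosphatase, had 45.5 FPKM in kidney and was listed at 0 elsewhere, on a locus that spans other genes. Apart from these ratios, and chosen after their values were seen, Rhox6, a homeobox gene, and Gsdmc2, a gasdermin, had 4.76 and 1.96 FPKM in kidney and were also listed at 0 in all other tissues, on loci opposite to the annotated strand. On their own strand they had 0.469 and 0.747 FPKM, under the minimum.

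By level, the highest enriched genes after Kap were Gpx3 with 6357, Spink1 with 1531 and Acsm2 with 1489.9 FPKM. Gpx3, the secreted glutathione peroxidase of plasma, had 543 FPKM in BAT, 421 in VAT, 157 in skeletal muscle, 91.3 in SCAT, 7.45 in liver and 1.95 in cortex, with a log2 ratio of 3.55. Its locus is merged with Anxa6 and lies opposite to the annotated strand of Gpx3, so both names share this value, and the annotated strand of Gpx3 had 3469 FPKM. Cyp4b1, a fatty acid and drug hydroxylase, had 999 FPKM in kidney and 96.6 in BAT. Keg1, an acyltransferase-like gene, had 937 in kidney and 91.6 in liver on an opposite-strand locus, and 472 in kidney on its own strand. Dnase1, the secreted nuclease, had 859 FPKM in kidney and at most 6.04 elsewhere. Akr1c21, a hydroxysteroid dehydrogenase, had 789 FPKM in kidney and 2.68 in liver. Ndrg1, a stress-response gene, had 721 FPKM in kidney and 28.8 in VAT.

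Few widely expressed genes were missing from kidney. Of 7997 genes with at least 1 FPKM in each of the other tissues, 10 were at least 4-fold lower in kidney than in the lowest of them (0.125%). Vtn, which encodes the plasma adhesion protein vitronectin, had 0.257 FPKM in kidney, 846 in liver, 9.59 in cortex, 7.15 in VAT, 6.44 in skeletal muscle, 4.03 in SCAT and 2.72 in BAT. Rbp4, the plasma carrier of retinol, had 0.21 FPKM in kidney, 618 in liver, 28.3 in VAT, 10.5 in BAT, 3.32 in SCAT, 1.33 in cortex and 1.30 in skeletal muscle. Abcd2, a peroxisomal transporter of very long-chain fatty acids, had 0.165 FPKM in kidney and between 2.39 (cortex) and 26.4 (VAT) elsewhere. Serpina3n, a protease inhibitor of the acute phase, had 0.125 FPKM in kidney and between 1.11 (BAT) and 57.5 (liver) elsewhere. That locus is opposite to the annotated strand, on which Serpina3n had 0.0989 FPKM in kidney. Bche, Adam23, Ppp1r3c, Palmd and the merged pair Ackr1 and Cadm3 complete the set, with 0.0229 to 0.398 FPKM in kidney. Bche and Ppp1r3c were also read from opposite-strand loci, and had 0.0404 and 0.0245 FPKM in kidney on their own strand. The locus of Vtn spans other genes. No gene met the rule with a minimum of 5 FPKM in each other tissue or with 1 in place of 0.1 added to each FPKM.

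Many further genes were high in kidney and in 1 other tissue. With both at least 4-fold above each of the remaining 5 tissues, kidney shared 225 genes with liver, 66 with cortex, 42 with VAT, 13 with skeletal muscle, 5 with BAT and 2 with SCAT. Of the 225 shared with liver, 206 were not enriched in kidney alone. These counts stand beside 11201 genes with at least 1 FPKM in kidney, and pairs without kidney were not counted. They are counts of names, and names merged at a locus repeat its value. Several Ugt1a names, for example, share 139 FPKM in kidney and 277 in liver. Glyat, which conjugates acids with glycine, had 387 FPKM in kidney, 225 in liver and at most 1.59 elsewhere. Cyp2j5, an arachidonic acid epoxygenase, had 332 FPKM in kidney and 220.5 in liver. Cyp4a10, a fatty acid hydroxylase, had 871 FPKM in kidney and 3139 in liver, on a locus that spans related genes. The conjugating enzyme Ugt2b5 had 312 FPKM in kidney and 339 in liver on a locus merged with Ugt2b38, and Slc22a29 had 60.7 and 48.9 on an opposite-strand locus merged with Slc22a30, and 0.768 in kidney on its own strand. Near-identical family members such as these may share reads, and how the counting assigned such reads is not given in the sources used here.

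Kidney and cortex shared Fut9, a fucosyltransferase that makes the Lewis X sugar, at 88.3 and 28.6 FPKM, with at most 0.114 elsewhere. Atp9a, a lipid flippase, had 12.2 FPKM in kidney, 72.0 in cortex and was listed at 0 in the remaining tissues. Both were read from loci opposite to the annotated strand, where Fut9 had 88.3 FPKM in kidney against 1.88 on its own strand. Kidney and VAT shared Wfdc15b, a small secreted antiprotease-like gene, at 117 and 84.4 FPKM, and Serpina1f at 31.1 and 62.6.

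The rule is a threshold on a continuous scale. Just inside it lay Muc1, Dleu7 and Mfsd9, each with a log2 ratio of 2.00 and with 1.64, 1.56 and 1.86 FPKM in kidney. Just outside lay Slc29a3 and Veph1, each with 1.99, and Tgm1 with 1.98, at 6.62, 7.99 and 4.79 FPKM in kidney.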

How the data were processed

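RNA-Seq of 7 mouse tissues was analysed, with 1 library each. According to the study's methods and the submitters' processing notes, the authors removed ribosomal reads with Bowtie2 2.2.9, aligned the remainder to GRCm38 with STAR 2.6.0c, assembled and merged transcripts with Cufflinks 2.2.1 and ran Cuffdiff between tissues. The authors deposited FPKM per locus for 94339 loci in 21 pairwise comparisons. A tissue's FPKM did not differ between comparisons, and Cuffdiff's settings for library type and scaling are not given in the sources used here. The study's methods describe strand-specific TruSeq libraries for liver RNA, and do not say in so many words that those of the 7 tissues were made in this way. The log2 fold changes, test statistics, p-values and q-values of the authors' comparisons were not used. Fragment counts are not in the table, so depth and its precision are unknown.

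Names were split at commas and matched to GENCODE M21 (92.6% of 50354, including 251 older symbols). The 151 loci with the status FAIL were dropped, zeros with the status LOWDATA were treated as missing, and the locus with the highest FPKM in any tissue was used for each name. Strand was inferred from how locus identifiers are ordered, since the table has no column for it. Podxl and Slc8a1 lie at failed loci, and Dpep1 and Acta1 were not analysed here. Log2 ratios used FPKM + 0.1. The rule was tested on simulated data of 15084 genes. There, 200 of 200 genes raised 16-fold in kidney and none of the others were called. For the opposite rule, 59 of 59 genes lowered 64-fold, with a simulated mean of at least 10 FPKM, were called. The simulated tissues shared the same level apart from small noise, so this checks only the arithmetic of the rule.

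The genes and lists were chosen with earlier results of these data known. Named were members of the lists (14 by segment and function, 11 of other cell types), the 4 markers, the 25 largest ratios, the 15 highest enriched genes, the 10 lowest ratios, the 3 genes on either side of the threshold and the 10 most shared with 1 other tissue, but not every such gene is printed, and some items are not reported here. Alternatives covered the FPKM added, the minimum, the fold, the scaling of the libraries, the choice of locus, the strand and the tissues compared. Python 3.11.15, pandas 2.3.3, NumPy 2.4.6 and matplotlib 3.10.9 were used.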

Additional observations from a re-analysis of the deposited data

How the results depend on the processing

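No paired analysis was possible because a single library stands for each tissue, so none could be left out within a tissue. The 373 kidney-enriched protein-coding genes became 629 with a 2-fold rule, 242 with an 8-fold rule, 618 without liver and 761 against the mean of the other tissues. They numbered 334 with the libraries scaled by their median ratio, 316 by their upper quartile and, in alternatives chosen after seeing the data, 337 on the annotated strand only and 435 without VAT, of which 328, 310, 330 and 373 were among the 373. The 10 kidney-depleted protein-coding genes became 0 with 1 FPKM added or a minimum of 5 FPKM, 16 with no minimum or with FPKM summed over the loci of a name, 56 with a 2-fold rule, 3 with an 8-fold rule, 36 without liver and 293 against the mean. The 115 enriched list members ranged from 98 (8-fold rule, or 1 FPKM added) to 171 (mean of the other tissues). Of 2814 recomputed ratios of genes named by list or rank, 2698 kept their side of the 4-fold threshold. None of those past it turned its direction. Ugt1a7c, named below but not among these genes, went from 5.32 to -0.999 on its annotated strand. The ratio of Sim1 fell below 4-fold most often, and those of Slc16a14 and Nphs1 in several alternatives. Median ratio scaling divided the FPKM by factors whose log2 was -0.52 for SCAT and -0.42 for VAT, which raised these values, and 0.39 for skeletal muscle, 0.29 for BAT and 0.05 for kidney, which lowered them. Counting zeros of too few reads as 0, or keeping failed loci, left the 373, 10 and 115 as they were.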

Other observations

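Further enriched genes outside the segment lists, chosen here after their values were seen, fell into several functions. Vitamin uptake was represented by Folr1, the folate receptor, with 147 FPKM in kidney, 2.86 in VAT and 1.90 in cortex (log2 ratio 5.64), and by Tcn2, the vitamin B12 carrier transcobalamin, with 323 in kidney and 36.4 in BAT (3.14). The basement membrane collagens of Alport syndrome, Col4a3 and Col4a4, had 24.4 and 16.4 FPKM in kidney and at most 0.77 and 0.99 elsewhere. Cytochrome P450 genes included Cyp2a4 with 179 FPKM in kidney and 1.19 in liver, Cyp2j11 with 45.7 and 0.0281, and Cyp2d12 with 41.4 and 0.635, so these 3 genes stood higher in kidney than in liver, whereas Cyp2e1 and Cyp4a14 had 331 and 234 FPKM in kidney and 4606 and 2589 in liver. Cckar, the cholecystokinin receptor, had 20.95 FPKM in kidney and at most 0.0458 elsewhere, on a locus opposite to its annotated strand, and 5.30 in kidney on its own strand.

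Some high values go with a neighbour. Syn3, a neuronal synapsin gene, had 277 FPKM in kidney and 10.6 in cortex, and its locus overlaps Timp3, which had 51.2 and 1.90. Nrxn2, a neurexin gene, had 161 FPKM in kidney on a locus that overlaps Slc22a12. Ugt1a7c had 279 FPKM in kidney on a locus opposite to its annotated strand, with a log2 ratio of 5.32, and on its own strand 139 FPKM with a ratio of -0.999. The part of the neighbours in these values was not tested.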
